A study of Homo sapiens with 6 samples.

Results

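The Wnt negative feedback regulators described here are 10 genes whose products restrain or tune Wnt signalling: AXIN2, NKD1, NOTUM, RNF43, ZNRF3, DKK1, DKK4, DACT1, APCDD1 and LGR5. They were chosen by name, with earlier results of these data known. Every β-catenin peak that the deposited lists name for one of them was taken, at any distance from its transcription start site (TSS). That gave 26 of the 3126 peaks in 3 lists. β-catenin was mapped by ChIP-seq (chromatin immunoprecipitation and sequencing) in SA121, an established line of human embryonic stem cells, with treatments of 6 h. The 3 conditions were mock treatment (RPMI), RPMI-1640 medium with CHIR99021 (CHIR), and the same medium with CHIR99021 and SB431542 (CHIR+SB). CHIR99021 inhibits GSK3, the kinase that marks β-catenin for degradation. SB431542 blocks receptor kinases of the activin, Nodal and TGFβ pathway. Each condition had 1 β-catenin library and 1 goat IgG control library, each made from pooled parallel ChIPs of 1 cell line. No value therefore has a replicate check, and no test between conditions was made. Peak lists measure no expression, so the labelled cell type was not checked against markers.

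In the Wnt pathway, a ligand at the cell surface stops a cytoplasmic destruction complex, and β-catenin then accumulates and joins TCF/LEF factors on DNA. Many of the genes switched on in this way encode inhibitors that act back on the pathway. They act at different levels: AXIN2 is a scaffold of the destruction complex, NKD1 and DACT1 bind Dishevelled, and NOTUM and the DKK proteins are secreted. RNF43 and ZNRF3 are membrane ubiquitin ligases that remove Frizzled receptors, and LGR5 is a receptor for R-spondins, which hold those ligases back. APCDD1 is a membrane protein that inhibits Wnt signalling.

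The RPMI list held 260 peaks of at least 15 reads, the CHIR list 1053 of at least 20, and the CHIR+SB list 1813 of at least 12. The normalized signal used below is the read count times 1 factor per library, as deposited, so that 1 RPMI read counted as 0.641, 1 CHIR read as 0.384 and 1 CHIR+SB read as 0.563. By the inverse of these factors, the CHIR library was 1.67 times and the CHIR+SB library 1.14 times as deep as the RPMI library, if the factors scale to a common depth. The IgG libraries had factors of their own, 0.706 per read with CHIR, 0.394 with CHIR+SB and 0.689 with mock treatment. Raw β-catenin and IgG reads printed side by side are therefore not on the same scale. Signal over IgG, where given, is the ratio after both factors were applied. The median peak was 368 bp wide in CHIR and 260 bp in CHIR+SB, and median IgG counts were 4 and 6 reads. Intervals given below are exact 95% intervals and cover counting error only.

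None of the 10 genes had a peak named for it in RPMI, while 5 had at least 1 in CHIR and 5 in CHIR+SB. Of the 20052 protein-coding genes that RefSeq lists, 1.14% had a peak named for them in the RPMI list. The share was 3.80% for the CHIR list and 6.25% for the CHIR+SB list. The genes were chosen with earlier results of these data known, so the counts beside these shares are a description only. AXIN2, NKD1, DACT1 and DKK1 had peaks in both treated lists, NOTUM in CHIR and RNF43 in CHIR+SB. ZNRF3, DKK4, APCDD1 and LGR5 had no peak under their names in any list. The CHIR list held 14 peaks of these genes with 578 reads, and the CHIR+SB list 12 peaks with 374 reads. Their median signal was 13.8 in CHIR, against 11.9 for the whole list, and 13.5 in CHIR+SB, against 9.56. These medians are not scaled for peak width. The median width of the peaks of these genes was 387.5 bp in CHIR, against 368 bp for the list, and 431.5 bp in CHIR+SB, against 260 bp. No peak of the RPMI list, whichever gene it was named for, lay within 100 kb of the TSS of any of the 6 genes that had a peak elsewhere. At the RPMI minimum signal of 9.61, 11 of the 14 CHIR peaks would have passed, as would 70.4% of all CHIR peaks. The calling thresholds are not known here, so an unlisted site is not shown to lack signal. Within 1 kb of the TSS lay 4 of the 14 CHIR peaks, against 26.6% of that list, and 2 of the 12 CHIR+SB peaks, against 14.5%. The share in the RPMI list was 55.0%, with 0 peaks of these genes.

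AXIN2 held 7 of the 14 peaks in CHIR and 5 of the 12 in CHIR+SB. No other gene had as many peaks in the CHIR list, while 7 genes, AXIN2 among them, had 5 or more in CHIR+SB. In CHIR, 4 of the AXIN2 peaks formed a cluster around the TSS (hg19, chr17:63556464-63558090). From 5′ to 3′ in the gene these had 32, 67, 61 and 26 reads, beside 4, 12, 11 and 4 IgG reads. The pair in the middle ranked 76th and 103rd of the list. The first lay just upstream of the TSS, the next spanned it and the other two lay within the gene, downstream of it. In CHIR+SB 1 peak 1440 bp wide (chr17:63556640-63558080) covered most of this place, with 81 reads and 32 IgG reads. It overlapped the first 3 of the CHIR peaks, and the fourth lay 56 bp outside it. The CHIR+SB peak ranked 10th in its list by signal, and no CHIR+SB peak had more IgG reads, while 1 other had as many.

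Away from the TSS, 3 AXIN2 sites had a peak in both treated lists. The highest lay 32 kb upstream, with 72 reads and 10 IgG reads in CHIR (chr17:63589622-63590221) and 60 reads and 14 IgG reads in CHIR+SB (chr17:63589359-63590140). It ranked 61st in CHIR, above each single peak of the TSS cluster, and 23rd in CHIR+SB. The 4 cluster peaks together had 186 reads in CHIR. Signal per kb of peak in CHIR was 46.2 at the upstream site and 56.6 over the cluster. In CHIR+SB it was 43.2 at the upstream site and 31.6 at the TSS peak. A site 11.4 kb upstream had 32 reads in CHIR and 34 in CHIR+SB, beside 6 and 10 IgG reads. One beyond the end of the gene, 66.4 kb from the TSS, had 40 and 29 reads, beside 5 and 9 IgG reads. The CHIR+SB list alone had a further peak 45.4 kb from the TSS, also beyond the gene's end, with 32 reads and 15 IgG reads (chr17:63511982-63512601). At the signal of the 7 CHIR peaks the RPMI library would have had 15.6 to 43.1 reads, and its list holds peaks from 15 reads upward.

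**Figure D1:**
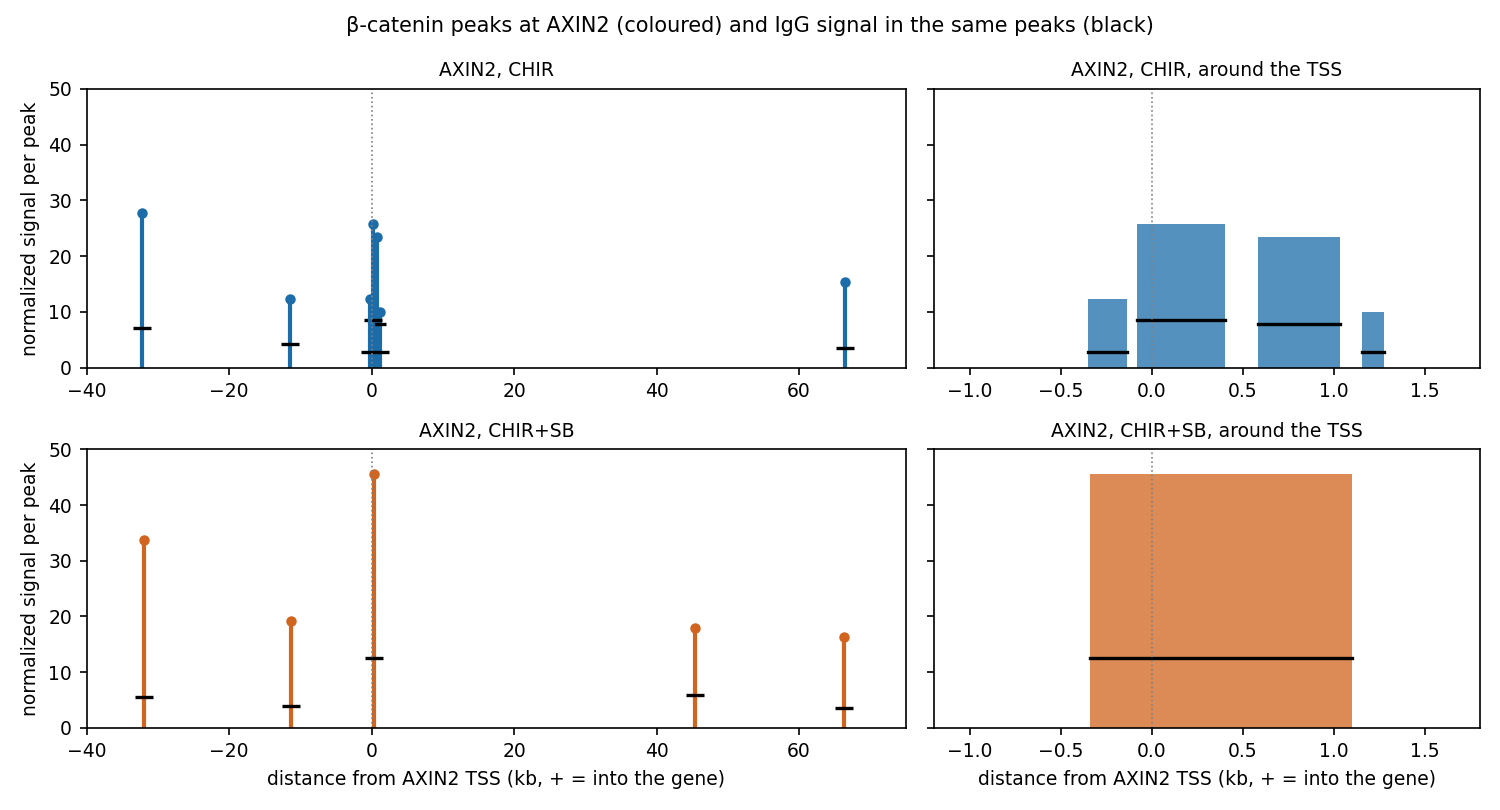
Normalized β-catenin signal per peak (coloured stems on the left, blocks of peak width on the right) and IgG signal in the same peaks (black bars) against distance from the AXIN2 TSS in kb, in CHIR (top) and CHIR+SB (bottom). The CHIR list splits the TSS region into 4 peaks with signals of 9.98 to 25.7. The CHIR+SB list holds 1 peak of 45.6 there, which overlaps 3 of them and ends 56 bp short of the lowest.

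NKD1, which binds Dishevelled and dampens the signal, had a pair of peaks in each treated list, at the same places. The promoter peak lay 0.815 kb upstream of the TSS in CHIR, with 25 reads and 4 IgG reads (chr16:50581303-50581547). In CHIR+SB it lay 0.72 kb upstream, with 15 reads and 4 IgG reads (chr16:50581418-50581622). The distal peak had the more reads in both lists and lay 80 kb upstream. Per kb of peak its signal was lower than the promoter's in CHIR, 33.5 against 39.3, and higher in CHIR+SB, 43.9 against 41.4. It had 53 reads and 6 IgG reads in CHIR (chr16:50501933-50502541), ranking 155th, and 22 reads and 10 IgG reads in CHIR+SB (chr16:50502005-50502287), ranking 516th. The CHIR+SB peak there was 282 bp wide against 608 bp in CHIR.

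DACT1, which also acts on Dishevelled, had 3 peaks in each treated list. A site 8.43 kb upstream had 42 reads and 5 IgG reads in CHIR (chr14:59092110-59092591) and 24 reads and 10 IgG reads in CHIR+SB (chr14:59092169-59092633). A site 135 kb beyond the TSS, past the end of the gene, had 51 reads and 8 IgG reads in CHIR, and again 24 reads and 10 IgG reads in CHIR+SB. Both sites were thus present with either treatment, and the downstream one was the higher in CHIR. The third CHIR peak lay 2.17 kb upstream with 25 reads, and the third CHIR+SB peak 177 kb downstream with 14 reads. Neither overlapped a peak of the other list. RefSeq (GRCh38.p14) gives DACT1 3 start sites, the furthest downstream 4.78 kb from the first, so these distances depend on the start chosen by the authors. The 250 bases before the first of these starts (GRCh38.p14, chr14:58633811-58634060, plus strand) are shown because, with those of DKK1, they were the windows of these genes that held one of the 4 TCF/LEF words spelled out with DKK1. The capitals mark CTTTGAA, from 214 bases before the start.
DACT1: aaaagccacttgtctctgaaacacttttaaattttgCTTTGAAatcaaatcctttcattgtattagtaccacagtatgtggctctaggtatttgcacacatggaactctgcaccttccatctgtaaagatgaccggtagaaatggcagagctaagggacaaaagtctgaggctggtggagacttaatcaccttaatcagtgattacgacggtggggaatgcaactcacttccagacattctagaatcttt

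NOTUM, a secreted enzyme that inactivates Wnt ligands, had 1 peak, in CHIR. It lay 6.95 kb upstream, with 29 reads and 4 IgG reads (chr17:79925863-79926146), and ranked 585th of 1053. At the same signal the CHIR+SB library would have had 19.8 reads, above the minimum of 12 in its list. No CHIR+SB peak lay within 100 kb of the NOTUM TSS.

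DKK1, a secreted protein that blocks the LRP5/6 co-receptors, had 1 peak under its own name in each treated list, at different places. In CHIR it lay 64.2 kb from the TSS beyond the gene, with 23 reads and 3 IgG reads (chr10:54138182-54138310). In CHIR+SB it lay 39 kb from the TSS, with 17 reads and 7 IgG reads (chr10:54112983-54113176), and 25006 bp separated it from the CHIR peak. A search by position, whichever gene was named, found a peak with more reads beside the DKK1 TSS in both treated lists. The lists name it for PRKG1-AS1, a noncoding gene that is transcribed away from DKK1 and whose TSS is nearer, 0.449 kb from the CHIR peak's centre. That centre lay 0.601 kb upstream of the DKK1 TSS, and the peak had 42 reads and 4 IgG reads (chr10:54073163-54073715). In CHIR+SB the centre lay 0.594 kb upstream, with 30 reads and 15 IgG reads (chr10:54073158-54073735). It ranked 282nd and 263rd, above the peaks named for DKK1, at 828th and 875th. The signal was 16.1 in CHIR and 16.9 in CHIR+SB, a ratio of 1.05 (0.632 to 1.71), and the peaks were 552 and 577 bp wide. Position could be counted only for the 6 genes whose TSS the lists place. These are the genes with a peak named for them in some list, so a count out of 6 is high by construction. No share over all genes was taken by position. Within 50 kb of the TSS, 5 of these 6 had a peak in CHIR by position in place of 4 by name, and 5 in CHIR+SB either way. The other 4 genes, DKK4 among them, were not in this count.

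The peak at the DKK1 TSS ended 325 bp before the TSS in CHIR and 305 bp before it in CHIR+SB, so the 250 bases printed here lie between the peak and the gene. Variants of the TCF/LEF recognition sequence were searched on both strands, and none of the words overlaps another at the matches shown. They were ATCAAAG, which 2.26% of all such windows hold, TTCAAAG, held by 3.80%, AACAAAG, held by 4.50%, and TACAAAG, held by 2.35%. The window (GRCh38.p14, chr10:52314031-52314280, plus strand, from RefSeq) holds a pair of matches in capitals, CTTTGAA from 95 bases and CTTTGTT from 76 bases before the start. The first is TTCAAAG read on the other strand, and the second is AACAAAG.
DKK1: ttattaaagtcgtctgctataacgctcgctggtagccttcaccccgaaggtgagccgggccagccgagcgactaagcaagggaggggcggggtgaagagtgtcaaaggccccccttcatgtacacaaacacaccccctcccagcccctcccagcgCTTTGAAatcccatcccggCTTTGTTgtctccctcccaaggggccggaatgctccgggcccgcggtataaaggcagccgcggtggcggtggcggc

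Of all 35116 RefSeq windows of this length, 12.0% held at least 1 of the 4 words. RefSeq windows were matched for 4 of the 10 genes, DKK1, DACT1, RNF43 and APCDD1, with 7 windows in all, of which 2 held a match. A match is a description of the letters and not evidence of binding.

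RNF43 had 1 peak, in CHIR+SB, within the gene and 14.1 kb from the TSS, with 22 reads and 3 IgG reads (chr17:56480675-56481074). Its signal over IgG, 10.5 (3.15 to 54.7), was the highest of the 26 peaks, with a wide interval that comes from 3 IgG reads. At the same signal the CHIR library would have had 32.2 reads, and the CHIR list holds peaks from 20 reads. RefSeq gives RNF43 a second start site 14.8 kb into the gene in GRCh38.p14. The peak coordinates are in hg19 and were not converted, so the peak was not placed against that start base by base. The 250 bases before this inner start (GRCh38.p14, chr17:58402722-58402971, minus strand) are shown because the peak is listed at a similar distance into the gene. None of the 4 words is in this window.
RNF43: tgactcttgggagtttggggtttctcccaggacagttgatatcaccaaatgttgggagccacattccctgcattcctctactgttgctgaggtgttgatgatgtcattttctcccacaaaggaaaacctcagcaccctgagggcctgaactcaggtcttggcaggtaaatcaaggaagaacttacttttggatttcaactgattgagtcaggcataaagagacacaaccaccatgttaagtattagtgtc

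**Figure D2:**
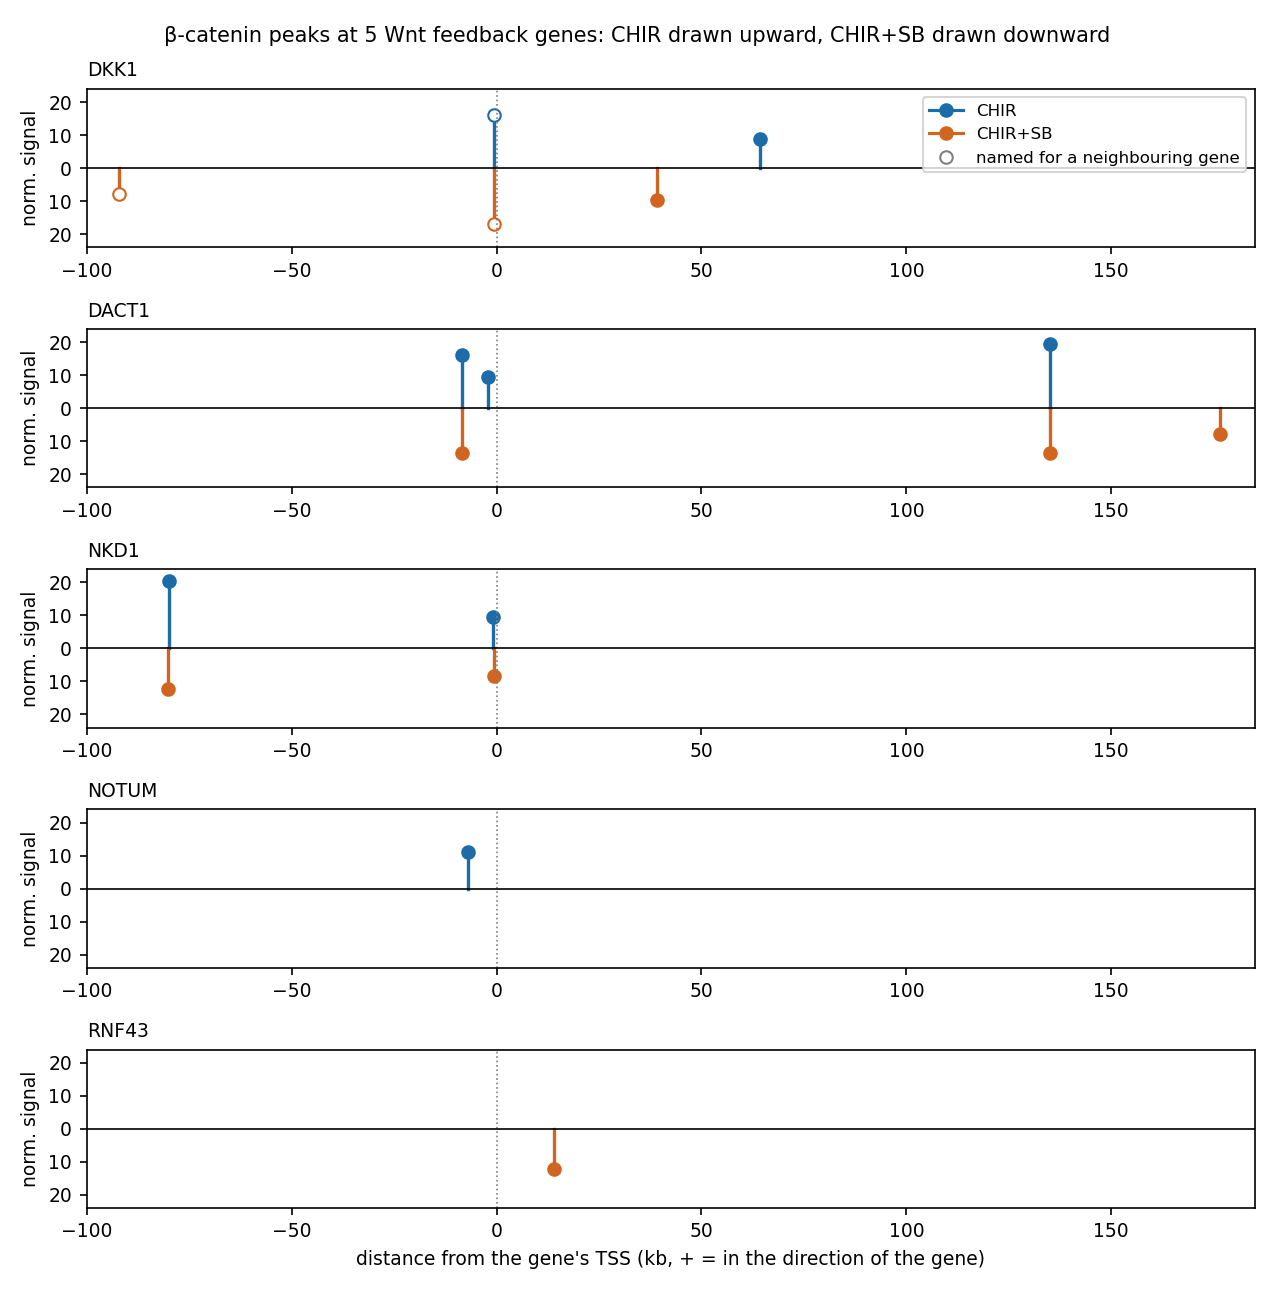
Normalized β-catenin signal per peak against distance from the TSS in kb for DKK1, DACT1, NKD1, NOTUM and RNF43, in CHIR (blue, drawn upward) and CHIR+SB (orange, drawn downward), with open symbols for peaks named for a neighbouring gene. The DKK1 TSS, the NKD1 promoter and its site 80 kb upstream, and a pair of DACT1 sites have a peak of each colour at the same place.

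ZNRF3, the close relative of RNF43, had no peak under its name. The CHIR+SB list had 1 peak named for ZNRF3-AS1, with 16 reads and 5 IgG reads (chr22:29400698-29400957), 26.6 kb from the TSS of ZNRF3-AS1 and past that gene's end. In the GRCh38.p14 annotation ZNRF3-AS1 lies inside ZNRF3, and its TSS is 148 kb into ZNRF3. ZNRF3-AS1 runs toward the start of ZNRF3, so by this order the peak falls within ZNRF3. It ranked 996th of 1813, and neither RPMI nor CHIR had a peak named for ZNRF3-AS1.

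DKK4, which like DKK1 is a secreted co-receptor antagonist, lies 0.558 kb from VDAC3 in the GRCh38.p14 annotation. VDAC3 encodes a mitochondrial membrane channel. The VDAC3 promoter had a peak in all 3 lists. It had 21 reads and 6 IgG reads in RPMI, 62 and 11 in CHIR, and 29 and 15 in CHIR+SB. It lay 0.0815 to 0.257 kb upstream of the VDAC3 TSS, on the side that faces DKK4. Its distance from the DKK4 TSS was not measured. DKK4 thus had no peak by name, and whether it had one by position is not known. LGR5 had no peak, and the nearest named gene with one was ZFC3H1 or THAP2, which share a promoter region on the far side of ZFC3H1. The peak there had 43 reads in CHIR, named for THAP2, and 21 in CHIR+SB, named for ZFC3H1. No gene within 100 kb of APCDD1 in the GRCh38.p14 annotation had a peak. These 4 genes have no TSS position in the lists, so peaks around them were sought through their neighbours' names only.

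The IgG library gives the background in each peak. In all 26 peaks the interval of signal over IgG lay above 1. The lists were scored against the IgG library, per their headers, so this is no independent finding. Signal over IgG ran from 2.90 to 4.81 in CHIR, where the median of all peaks was 4.66, and from 3.05 to 10.5 in CHIR+SB, where it was 4.29. In CHIR 13 of the 14 peaks lay below the median of their list, the exception being the distal NKD1 peak at 4.81, and in CHIR+SB 6 of the 12 did. At the AXIN2 TSS in CHIR, signal over IgG was 3.22 (2.14 to 5.05) for the 3 peaks that overlap the CHIR+SB peak, and 3.62 (2.37 to 5.63) in CHIR+SB. The IgG signal itself had a CHIR+SB to CHIR ratio of 0.661 (0.384 to 1.15). IgG reads per kb were 24.6 over the CHIR cluster, against a list median of 11.0, and 22.2 in CHIR+SB, against 23.5. These counts are not scaled for library depth and compare only within a list.

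**Figure D3:**
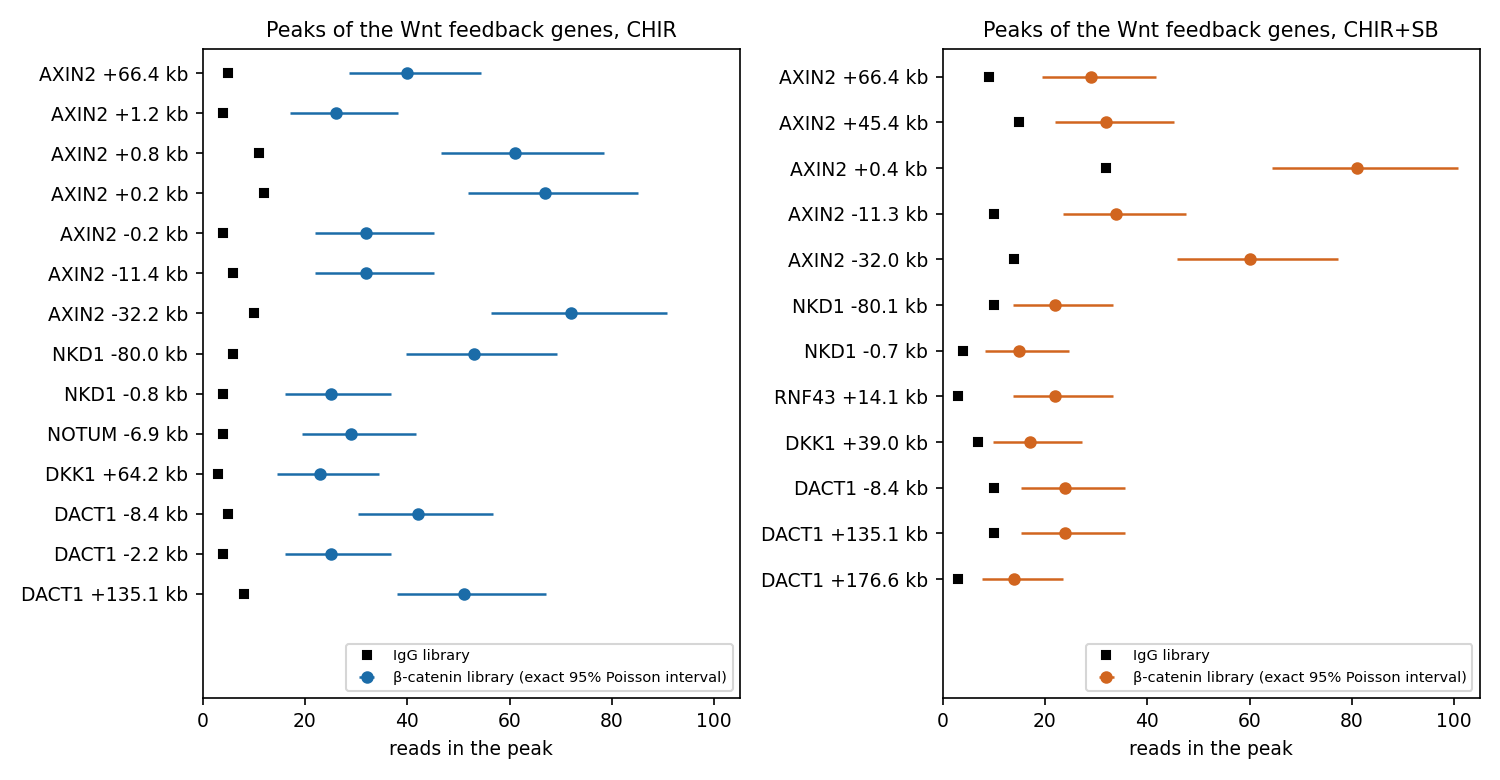
Reads in each peak of the Wnt feedback genes in the β-catenin library (coloured points with exact 95% Poisson intervals) and the IgG library (black squares), in CHIR (left) and CHIR+SB (right), each peak labelled with its distance from the TSS. In every peak the IgG count lies below the interval of the β-catenin count, and the 5 highest counts of both panels together, 81, 72, 67, 61 and 60, belong to AXIN2. The counts are raw and are not scaled by the factor of each library.

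The treated lists were then compared, CHIR with the second inhibitor against CHIR without it. An overlap of at least 1 bp with the CHIR+SB list was found for 10 of the 14 CHIR peaks (71.4%) and for 63.3% of the CHIR list. In the other direction it was found for 8 of the 12 CHIR+SB peaks (66.7%) and for 36.6% of the CHIR+SB list. Peaks of 1 gene are not independent, and 3 of the 10 were parts of the AXIN2 TSS cluster that met 1 CHIR+SB peak. No interval is therefore given for these shares. The overlapping peaks formed 8 sites at 3 genes, AXIN2, NKD1 and DACT1. The 4 peaks found in CHIR only had 23 to 29 reads, against 25 to 72 in the shared ones, with a median of 46.5. These 4 include the AXIN2 cluster peak of 26 reads, which lay 56 bp outside the CHIR+SB peak. The 4 found in CHIR+SB only had 14 to 32 reads, against 15 to 81, with a median of 26.5. The ranges overlap in both lists. At equal signal these 8 peaks would have had 15.7 to 46.9 reads in the other library, each above the minimum of its list.

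At the 8 shared sites the ratio of CHIR+SB to CHIR signal ran from 0.608 to 1.56, with a median of 0.858, while the median over all 657 shared sites was 0.999. The interval included 1 at 7 sites. The exception was the AXIN2 TSS, where the ratio was 0.742 (0.561 to 0.975), from 81 reads in CHIR+SB and 160 in the 3 CHIR peaks it overlapped. Among all shared sites the interval lay below 1 at 4.41% and above 1 at 6.54%. The CHIR+SB peak covers those 3 CHIR peaks except for 10 bp and also the gaps between them, 1440 bp against 1142 bp, so the wider peak had the lower signal. Per kb of peak the ratio was 0.588. With the fourth CHIR peak of the cluster added, 56 bp outside the CHIR+SB peak, the ratio of signal was 0.638 (0.485 to 0.832).

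The other AXIN2 sites had ratios above 1: 1.56 (0.932 to 2.61) at 11.4 kb upstream, 1.22 (0.852 to 1.74) at 32 kb upstream and 1.06 (0.635 to 1.76) at 66.4 kb. Their CHIR+SB peaks were 1.75, 1.30 and 1.28 times as wide, and per kb the ratios were 0.891, 0.936 and 0.830. The direction at these 3 sites thus turned when width was counted. NKD1 had 0.608 (0.352 to 1.02) at the distal site and 0.879 (0.431 to 1.73) at the promoter. DACT1 had 0.837 (0.485 to 1.41) upstream and 0.689 (0.406 to 1.14) downstream. At these 4 sites the CHIR+SB peak was the narrower. Per kb the distal NKD1 site had 1.31 and its promoter 1.05, on the other side of 1, while DACT1 had 0.868 and 0.944.

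**Figure D4:**
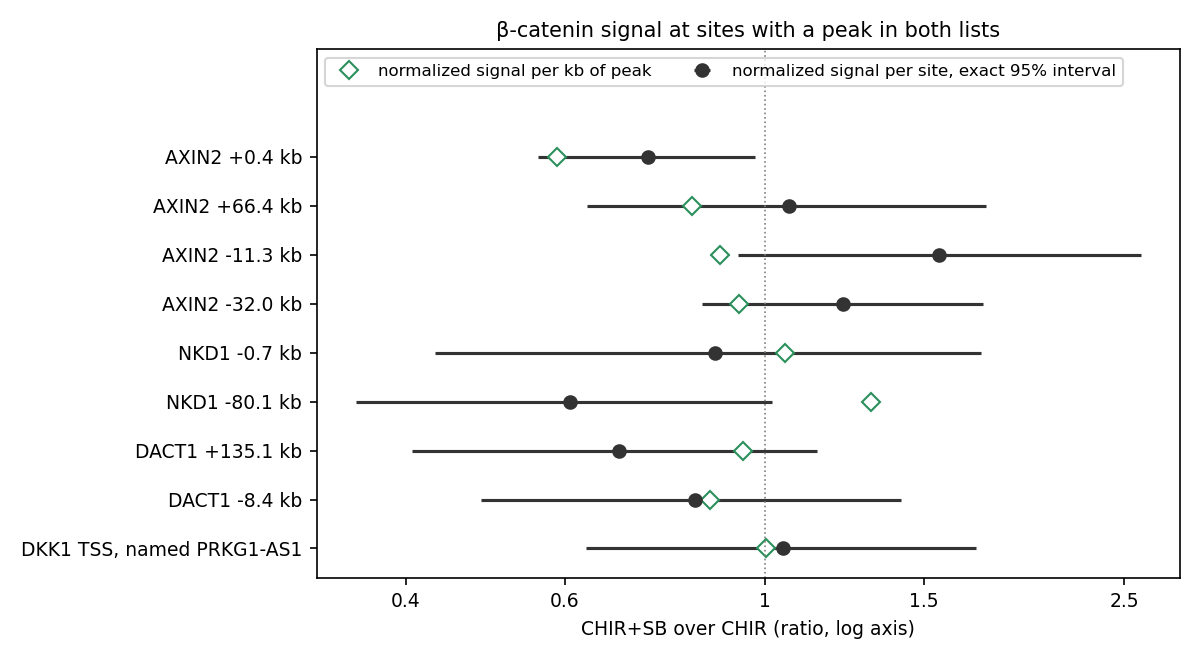
Ratio of CHIR+SB to CHIR normalized signal (log axis) at the 8 sites with a peak of both lists and at the DKK1 TSS, as signal per site with exact 95% intervals (black) and per kb of peak (green diamonds). Of these 9 sites the interval excludes 1 at the AXIN2 TSS alone (0.742), where the value per kb (0.588) lies on the same side.

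Other genes of the pathway were counted in the same way, and no difference between the gene groups was tested. Of 33 other Wnt inhibitors and R-spondin axis genes, 2 had a peak within 50 kb in CHIR, 1 in CHIR+SB and none in RPMI. At any distance the CHIR+SB count was 4. Among protein-coding genes the shares were 2.69% for CHIR, 3.74% for CHIR+SB and 0.888% for RPMI. TLE3, a co-repressor that binds TCF factors, had a promoter peak in both, with 50 reads and 3 IgG reads in CHIR and 22 reads and 5 IgG reads in CHIR+SB. CXXC5, which encodes a CXXC zinc finger protein that binds Dishevelled, had 1 of 23 reads in CHIR, 36.3 kb from its TSS. Of 23 core signal transduction genes, 3 had a peak within 50 kb in CHIR+SB, 2 in CHIR and 1 in RPMI, and at any distance the CHIR+SB count was 4. BCL9, a β-catenin co-activator, had one 46.2 to 46.3 kb into the gene in every list, with 18, 24 and 32 reads. TCF7 had 45 reads in CHIR and 32 in CHIR+SB, both 43.4 kb upstream, and TCF7L2 had 19 reads in CHIR+SB, 34.5 kb upstream. On the same measure, 4 of the 10 feedback genes had a peak within 50 kb in CHIR and 5 in CHIR+SB.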

How the data were processed

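Per the labels' protocols, cells were fixed with formaldehyde, DNA of parallel ChIPs was pooled, and libraries were sequenced on an Illumina instrument. The submitters' processing notes name Bowtie, hg19 and mm9, and the human peak coordinates are taken as hg19 and printed as listed. No source used here gives the peak caller or its thresholds. Doses are left out because their unit could not be checked. The deposited lists give whole read counts per peak in the β-catenin and IgG libraries, and the authors' normalized signal, which is the count times 1 factor per library. Decimal commas were read as points. Ratios of normalized signal carry exact conditional binomial intervals and counts exact Poisson intervals (scipy 1.17.1), checked on simulated counts. Shares of peaks are given without intervals. Peaks linked by at least 1 bp of overlap formed a site, with reads summed. A peak named for a gene was matched ignoring case. Background shares use the 20052 protein-coding symbols of the reference table (GRCh38.p14, names and gene order only). The genes, lists and tests were chosen with earlier results of these data known, and all 10 genes are named whether or not they had a peak. Of other pathway genes, those with a peak within 50 kb are named. The IgG libraries entered through the read counts that the lists give for each peak.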

Additional observations from a re-analysis of the deposited data

How the results depend on the processing

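Each condition had 1 library, so no replicate could be left out, and no paired analysis was possible because the groups hold 1 sample each and their labels carry no replicate numbers. Stricter choices of peaks moved the counts most. With the 260 highest peaks of each list, 3 genes with 5 peaks were left in CHIR, and 1 gene with 4 peaks in CHIR+SB. Within 10 kb of the TSS, 8 peaks were left in CHIR, and 3 genes with 3 peaks in CHIR+SB. No share over all genes or peaks was taken under these 2 restrictions, so the counts are not set against a background. The median signal ratio at shared sites was 0.586 from raw reads, which take no account of the shallower CHIR+SB library, and 0.879 to 0.914 under the other 3 alternatives. At the AXIN2 TSS the ratio stayed below 1 in each alternative (0.506 from raw reads, 0.588 per kb, 0.778 with IgG subtracted). At single sites, values left the interval of the main ratio at 2 sites each with raw reads and per kb, and at none with IgG subtracted. With 14 to 81 reads a peak, ratios near 1 were not resolved. The counting by position and the added CHIR peak at AXIN2 were chosen after the data were seen.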
